A study of Mus musculus with 20 samples.

Results

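The Mpo-high cells of the spleen were described here in 3 mouse models of B cell malignancy. They were cells whose transcripts were rich in the granule genes Mpo, Elane, Prtn3 and Ctsg, and they were chosen as granulocyte-monocyte progenitors, the marrow cells that give rise to neutrophils and monocytes. A barcode was a member when it held at least 5 UMIs (unique molecular identifiers, each counting 1 captured transcript) of Mpo, at least 3 of Elane, Prtn3 and Ctsg together, no UMI of Cd3d, Cd3e or Cd3g and at most 1 UMI of Cd79a and Cd79b together. In the 13 spleen libraries 652 of 65159 kept barcodes were members, or 1.00%. The series held 20 libraries from 13 mice and 97181 kept barcodes, and 7 of the libraries were lymph nodes of the same mice. The population with which the members were compared, called neutrophil precursors here, was the 2636 spleen barcodes with at least 10 UMIs of Camp, Ngp and Ltf together that were not members. They had to meet the same limits on Cd3d, Cd3e, Cd3g, Cd79a and Cd79b as the members.

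All mice carried the C57BL/6N strain label. Eµ-PRMT5 mice (5 spleens) carried the human PRMT5 coding region behind a mouse VH promoter and the IgH µ enhancer, which drive it in B-lineage cells. PRMT5 is an arginine methyltransferase that places symmetric dimethyl marks on histones and splicing proteins. Eµ-TCL1 mice (4 spleens) expressed the human oncogene TCL1 in B cells and are used as a model of chronic lymphocytic leukaemia. Eµ-PRMT5/TCL1 mice (4 spleens) were their cross and carried both transgenes. Tissue was taken when an animal met its early removal criteria, so age was not matched. Both sexes were present, and the groups included no spleen of a mouse without a transgene. Sex, read from Xist RNA, was male in Eµ-PRMT5 spleen 5, Eµ-TCL1 spleens 2, 3 and 4 and Eµ-PRMT5/TCL1 spleen 4. Sex was thus unbalanced between genotypes, and the tests of share and ratio below did not adjust for it. Several founders were made for the Eµ-PRMT5 line. The title of Eµ-PRMT5 spleen 3 carries the identifier of a founder, and whether that animal was the founder itself could not be settled, so it was kept as a replicate of its group. The mouse label of Eµ-PRMT5/TCL1 spleen 1 is M0955-RT. What the suffix RT says of that animal could not be settled, and it too was kept as a replicate. The libraries held unselected live cells, and the transgenes act in B-lineage cells, which the gate set out to leave out. A count against the mouse genome does not check either human transgene.

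Granulocyte-monocyte progenitors normally reside in bone marrow. They load primary (azurophil) granules with myeloperoxidase and the serine proteases neutrophil elastase, proteinase 3 and cathepsin G, and these genes are shut down as cells pass to the myelocyte stage, where secondary granule proteins such as cathelicidin (Camp), neutrophilic granule protein (Ngp) and lactoferrin (Ltf) are made. In the mouse the spleen retains red pulp in which such progenitors can settle and divide when blood formation spreads outside the marrow, which is known as extramedullary haematopoiesis.

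The promoters of the 4 gate genes are shown because the members were chosen by the output of these genes. Each run is the 250 bases before the RefSeq start of the gene on GRCm38.p6, read 5′ to 3′ on the strand of the gene, and capitals mark GAGGAA, a core of the sites that PU.1 and other ETS factors bind. The windows were chr11:87793534-87793783 (plus strand) for Mpo, chr10:79886062-79886311 (plus) for Elane, chr10:79879417-79879666 (plus) for Prtn3 and chr14:56102575-56102824 (minus) for Ctsg.
Mpo: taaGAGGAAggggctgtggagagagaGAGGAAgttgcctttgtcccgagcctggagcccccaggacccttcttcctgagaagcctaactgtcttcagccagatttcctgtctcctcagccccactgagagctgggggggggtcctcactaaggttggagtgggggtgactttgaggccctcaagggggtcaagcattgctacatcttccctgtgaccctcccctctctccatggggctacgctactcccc
Elane: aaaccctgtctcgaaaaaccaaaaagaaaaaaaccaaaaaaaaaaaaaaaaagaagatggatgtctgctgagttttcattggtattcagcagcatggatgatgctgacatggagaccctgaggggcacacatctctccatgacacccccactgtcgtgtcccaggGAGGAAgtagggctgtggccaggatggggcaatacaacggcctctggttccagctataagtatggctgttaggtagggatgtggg
Prtn3: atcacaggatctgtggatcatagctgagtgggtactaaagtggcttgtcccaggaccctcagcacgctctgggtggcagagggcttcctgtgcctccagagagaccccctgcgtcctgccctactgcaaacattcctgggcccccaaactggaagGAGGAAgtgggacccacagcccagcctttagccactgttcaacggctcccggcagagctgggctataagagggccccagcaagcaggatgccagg
Ctsg: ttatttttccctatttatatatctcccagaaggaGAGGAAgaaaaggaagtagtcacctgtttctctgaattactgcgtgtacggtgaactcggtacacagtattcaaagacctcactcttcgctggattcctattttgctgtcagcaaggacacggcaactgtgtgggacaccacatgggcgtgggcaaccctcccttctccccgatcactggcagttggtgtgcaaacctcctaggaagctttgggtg
Both strands of each window were searched for 4 motifs. GAGGAA stood in all 4 windows on the strand of the gene, at bases 247 to 242 and 224 to 219 before the start of Mpo, 85 to 80 before Elane, 95 to 90 before Prtn3 and 216 to 211 before Ctsg. It stood in 23.3% of the 32851 windows of the same length. CAACNG, a core of MYB sites, stood in the windows of Elane, Prtn3 and Ctsg and in 29.3% of all windows. TGTGGT, a RUNX core, stood only in that of Ctsg among the 4 (14% of all windows), and TTNNGNAA, a C/EBP core, in none of the 4 (36.8% of all windows). No 2 of these matches overlapped. Elane and Prtn3 lie next to each other on chromosome 10.

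The spleen libraries held 9348094 to 72440894 UMIs, and 1015 to 6907 barcodes per spleen were kept at 1500 UMIs or more, 200 genes or more and at most 10% mitochondrial UMIs. The median depth of the kept barcodes ran from 4281.5 to 13515 UMIs, and Eµ-PRMT5 spleen 4 was the deepest. Libraries shared 6037 barcodes over 190 pairs, against 6043 for barcodes drawn at random, and no barcode was a member in more than 1 library. Of the 18657 T cells of the spleens, a type that should lack Mpo, 13 held 5 or more Mpo UMIs, at most 0.833% of the T cells of a library, so free Mpo RNA seldom reached the limit.

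The values that chose the members are a description only. A member held a median of 32 Mpo UMIs (5 to 512) and a median of 225 UMIs of the 3 proteases together (9 to 1214). Of the members, 65 had 5 or 6 Mpo UMIs, while 94 barcodes that met the other limits had 3 or 4. No member lay near the protease limit, since the lowest sum was 9. At the B cell limit, 162 members held 1 UMI of Cd79a and Cd79b and 52 barcodes were left out with 2. In all, 156 of the 808 barcodes past the Mpo and protease limits (19.3%) were left out by the lymphoid limits. The members were deep cells, with a median of 19233.5 UMIs (2612 to 64767). In the 8 libraries with 20 or more members, their median depth was 12388 to 34900 UMIs and that of the neutrophil precursors was 4809 to 9122 UMIs. Doublets among the members were not called reliably, and their part in the values below was not tested.

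The label of granulocyte-monocyte progenitors held only in part. After each cell was thinned to 5000 UMIs, the stem cell factor receptor Kit was seen in a median of 6.62% of members per library, against 0.182% of neutrophil precursors and 0.768% of T cells (14.1% of members without thinning). Cd34, a surface glycoprotein of haematopoietic progenitors, was seen in 14.8%, 0% and 0% respectively (30.8% without thinning). Ms4a3, a gene of committed granulocyte-monocyte progenitors, was seen in 68.2% of members, 25.4% of precursors and 0.56% of T cells (88.8% without thinning). The thinned medians used 616 of 634 members, 1568 of 2394 precursors and 4295 of 10501 T cells, since shallower cells were left out. In addition, 140 members (21.5%) also met the precursor limit on Camp, Ngp and Ltf, and at 5000 UMIs the promyelocyte factor Cebpe was seen in 29.8% of members (74.8% of precursors, 1.4% of T cells) and the monocyte receptor Csf1r in 30.1% (2.29% and 3.56%). The members were therefore called by the first gene of the rule, as Mpo-high cells, and not by a stage.

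The first question was how common these cells were in each spleen and whether their share depended on genotype. They were found in all 13 spleens, at shares from 0.0167% to 3.89%. In Eµ-PRMT5 spleens 1 to 5 they made up 0.474%, 0.296%, 0.135%, 3.89% and 0.0167% of kept barcodes (22, 3, 7, 179 and 1 cells). In Eµ-TCL1 spleens 1 to 4 they made up 1.64%, 0.0290%, 2.04% and 0.384% (104, 2, 102 and 22 cells). In Eµ-PRMT5/TCL1 spleens 1 to 4 they made up 0.0838%, 3.58%, 1.02% and 0.445% (5, 133, 48 and 24 cells). Each genotype held spleens with under 0.1% and spleens with over 1.5%, and the 3 ranges overlapped almost wholly. Counting error was small beside this spread. The 95% Wilson interval was 3.37% to 4.49% for Eµ-PRMT5 spleen 4 and 3.03% to 4.23% for Eµ-PRMT5/TCL1 spleen 2, the highest in their groups, and 0.00295% to 0.0947% for Eµ-PRMT5 spleen 5, the lowest of all. These intervals cover counting error only. The limits of the gate are fixed in UMIs while the libraries differed in depth, and the order of the spleens moved with the gate. Members of Eµ-PRMT5 spleen 4 held a median of 15 Mpo UMIs at a median depth of 13767 UMIs. Those of Eµ-PRMT5/TCL1 spleen 2 held a median of 69 at a median depth of 29053. With each barcode thinned to 1500 UMIs before gating, Eµ-PRMT5 spleen 4 held 51 members (1.11%) and Eµ-PRMT5/TCL1 spleen 2 held 69 (1.86%, the highest), the Eµ-TCL1 spleens reached at most 0.866%, and Eµ-PRMT5 spleen 5 held none, which allows a share of up to 0.0502%. At an Mpo limit of 10 UMIs the first 2 of these spleens stood at 2.69% and 3.23%.

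**Figure D1:**
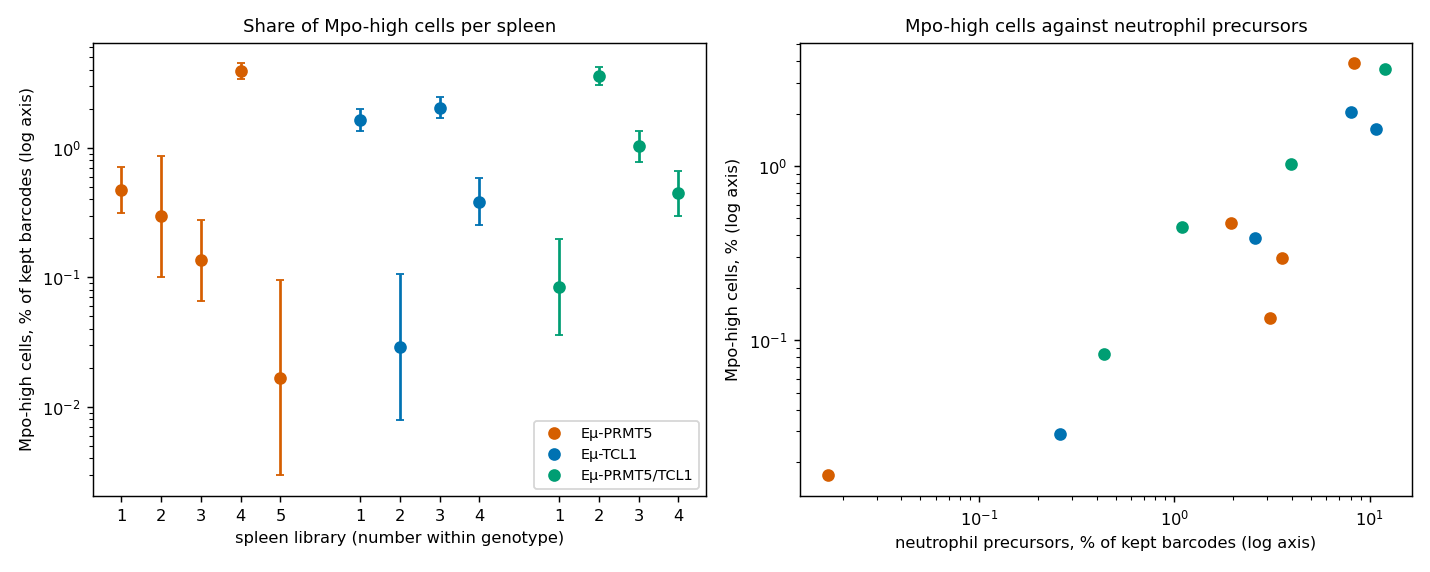
Left, the percent of kept barcodes that were Mpo-high cells in each of the 13 spleens on a log axis, with 95% Wilson intervals as bars and genotype as colour. Right, the same percent against the percent of neutrophil precursors, both on log axes, with 1 point per spleen. The shares ran from 0.0167% to 3.89%, and each genotype held high and low spleens. Spleens with more precursors tended to hold more Mpo-high cells, with exceptions such as Eµ-PRMT5 spleens 2 and 3. Both percents have the same denominator.

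The mean share was 0.962% ± 1.65 (SD, n = 5) in Eµ-PRMT5, 1.02% ± 0.968 (n = 4) in Eµ-TCL1 and 1.28% ± 1.58 (n = 4) in Eµ-PRMT5/TCL1 spleens. The differences were -0.0614 percentage points for Eµ-PRMT5 minus Eµ-TCL1, 0.261 for Eµ-PRMT5/TCL1 minus Eµ-TCL1 and 0.322 for Eµ-PRMT5/TCL1 minus Eµ-PRMT5. None was larger than the spread between spleens (exact permutation tests, two-sided, p = 1, 0.8 and 0.635, adjusted p = 1 for all 3). The smallest p these sizes allow is 0.0159 for 5 against 4 and 0.0286 for 4 against 4 spleens. The group means rested on single spleens. Without Eµ-PRMT5 spleen 4, which was also the deepest library, the first and the third of these differences were -0.793 and 1.05 percentage points. Without Eµ-PRMT5/TCL1 spleen 2 the second and the third turned to -0.506 and -0.445, and without Eµ-TCL1 spleen 2 the second turned to -0.0709. The first also turned without Eµ-TCL1 spleen 1 or 3 (0.144 and 0.278) and on leaving out any 1 of the Eµ-PRMT5 spleens 1, 2, 3 and 5 (0.0606 to 0.175).

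The number of Mpo-high cells per neutrophil precursor is less dependent on how much of a spleen was lymphoid. On the log2 scale it averaged -2.57 ± 0.41 in the 4 Eµ-TCL1 spleens, -1.81 ± 0.41 in the 4 Eµ-PRMT5/TCL1 spleens and -2.19 ± 1.77 in the 5 Eµ-PRMT5 spleens. Eµ-PRMT5/TCL1 spleens ran from -2.27 to -1.28 and Eµ-TCL1 spleens from -2.89 to -1.98, so the ranges overlapped. The difference of 0.77 did not pass (exact permutation test, two-sided, p = 0.0571, adjusted p = 0.171 over 3 comparisons), nor did 0.39 for Eµ-PRMT5 minus Eµ-TCL1 and 0.38 for Eµ-PRMT5/TCL1 minus Eµ-PRMT5 (p = 0.667 and 0.683, both adjusted to 0.683). The sign for Eµ-PRMT5 minus Eµ-TCL1 turned when each barcode was first thinned to 1500 UMIs (-0.55). The Eµ-PRMT5 mean rested in part on spleen 5, whose ratio of 0.0 came from 1 member and 1 precursor. Without that spleen the difference from Eµ-TCL1 was -0.16 and that of Eµ-PRMT5/TCL1 from Eµ-PRMT5 was 0.93. Without Eµ-PRMT5 spleen 3 they were 0.95 and -0.18.

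The spleen was compared with the lymph node of the same mouse in 7 animals. The nodes held 15 Mpo-high cells among 32022 kept barcodes. The share was 1.03% ± 1.26 in the 7 spleens and 0.0358% ± 0.0466 in the 7 nodes, and it was higher in the spleen of 7 of 7 mice, by 0.991 percentage points (exact sign-flip test over mice, two-sided, p = 0.0156, the smallest that 7 mice allow). The node of the mouse with the richest paired spleen, Eµ-PRMT5/TCL1 spleen 2, held 5 members (0.0579%, 61.9-fold lower), and those of Eµ-PRMT5/TCL1 spleen 3 and Eµ-TCL1 spleen 4 held 5 each (0.0883% and 0.104%, 11.6-fold and 3.70-fold lower). The other 4 nodes held none. For these a count of 0 allows shares of up to 0.0730% (Eµ-TCL1 spleen 1, where the spleen was at least 22.4-fold higher), 0.0897% (Eµ-TCL1 spleen 2, whose spleen share of 0.0290% lay under that limit), 0.0640% (Eµ-PRMT5/TCL1 spleen 1, at least 1.31-fold) and 0.383% (Eµ-PRMT5/TCL1 spleen 4, at least 1.16-fold). In the last 3 mice these counts could not show a large difference. The spleens of the first 2 of them held 2 and 5 members, and the node of the third held 784 kept barcodes.

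Extramedullary haematopoiesis would bring several lineages into a spleen at once, so the share of Mpo-high cells was set beside those of neutrophil precursors and erythroid cells. The precursors made up 0.0167% to 11.9% of a spleen and the erythroid cells 0% to 1.40%. On a log10(percent + 0.01) scale over the 13 spleens, the Mpo-high share followed the precursor share (Pearson r = 0.897, permutation p = 1e-05, the smallest that 100000 resamples can give; Spearman rho = 0.874, p = 0.00024; adjusted p = 2e-05 and 0.00048 over 2 relations). Without the 2 spleens farthest from the median, Eµ-PRMT5 spleen 5 and Eµ-TCL1 spleen 2, r was 0.840. With the erythroid share r was 0.747 (permutation p = 0.00086) and rho was 0.714 (p = 0.00812), and r was 0.582 without Eµ-PRMT5 spleen 5 and Eµ-PRMT5/TCL1 spleen 2. Shares of 1 spleen have a common denominator. When it was restricted to barcodes that were neither T nor B cells, r was 0.815 for precursors (rho = 0.687, and r = 0.437 without the 2 farthest spleens) and 0.571 for erythroid cells (permutation p = 0.0619, rho = 0.0385, and r = -0.195 without the 2 farthest). The relation with erythroid cells did not pass within the non-lymphoid cells. No genotype held the 6 spleens that a value within it would need.

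The second question was how the profile of Mpo-high cells differed from that of neutrophil precursors. UMIs were summed per library in the 8 spleens with at least 20 members (Eµ-PRMT5 spleens 1 and 4, Eµ-TCL1 spleens 1, 3 and 4, Eµ-PRMT5/TCL1 spleens 2, 3 and 4), which held 634 members and 2394 precursors, and tested with the library as a block. Levels are given as CPM, which scale the UMIs of a gene to those of all genes in the sum, as the median of the 8 libraries with the lowest and highest in square brackets. Differences are log2 fold changes after TMM scaling, members minus precursors, with SE and the adjusted p of edgeR's quasi-likelihood test with Benjamini-Hochberg adjustment. The TMM scaling factor of members was higher than that of precursors by 0.54 to 0.94 on the log2 scale, so a gene with the same CPM in both populations has a log2 difference below 0. Both populations were chosen by their own RNA, so a p says only that a difference recurred over libraries. The 12 gate genes received no test. Mpo stood at 1721 to 4592 CPM in members and at a mean of 12.0 CPM in precursors, Elane at 3742 to 10847 and 181, and Camp at 1275 to 7263 in members and 16016 to 57978 in precursors.

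The populations differed in most of the transcriptome. Of 9752 genes tested, 7167 passed (73.5%), of which 3969 were higher in Mpo-high cells (40.7%) and 3198 were lower (32.8%), with a median of 0.16. Without TMM, 7940 passed and 6362 were higher, with a median of 0.90, so the share of higher genes among those that passed depended on scaling. Counts in the gene groups below are read against these shares. The filter on low counts asked for 5.07 CPM in at least 2 of the summed profiles. Of the genes tested, 1762 met it only in members, and fewer only in precursors or in neither population alone. Genes that met it in only 1 population were let in by their level there, so their values are a description. Among the 7619 that met it in both populations, 2565 were higher (33.7%) and 2888 lower (37.9%), and for each group that held other genes the count among such genes is given as well. The 10 genes that were higher by the most under the naming rule were BC035044 (111 [69.3 to 218] CPM in members, 0.355 [0 to 8.84] in precursors, log2 6.83), Ass1, which makes argininosuccinate (500 [298 to 1154] against 2.73 [2.13 to 10.9], log2 5.75), Srm, the spermidine synthase (179 [86.2 to 377] against 1.38 [0.48 to 6.31], log2 5.60), the mitochondrial matrix protein gene C1qbp (5.59), the adenine nucleotide carrier Slc25a4 (5.31), the galectin Lgals1 (5.28), the mitochondrial isocitrate dehydrogenase Idh2 (5.28), the transcription factor Irf8 (5.23), the serine synthesis enzyme Phgdh (5.10) and Pebp1 (4.93). Of these, BC035044, C1qbp and Slc25a4 met the filter only in members.

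Among the 10 genes that were lower by the most, Mmp9, the gelatinase of tertiary granules, stood at 0.324 [0 to 6.45] CPM in members and 828 [139 to 957] in precursors (log2 -9.49). Retnlg followed at 15.1 [1.41 to 122] against 6530 [1431 to 8596] (-8.67), the formyl peptide receptor Fpr1 at 0.324 [0 to 2.08] against 181 [136 to 345] (-8.59), the neutrophil surface marker Ly6g at 0.598 [0 to 5.71] against 576 [132 to 890] (-8.29) and Slfn4 at 6.73 [3.01 to 24.6] against 548 [349 to 1005] (-6.65). The other 5 were Stfa2, Stfa2l1, Asprv1, Gm5483 and BC100530, from -8.48 to -6.90. Stfa2, Stfa2l1, Gm5483 and BC100530 are near-identical stefin A copies whose reads may be split, so their values are uncertain. Mmp9, Fpr1, Ly6g, Asprv1, Stfa2 and Stfa2l1 met the filter only in precursors.

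**Figure D2:**
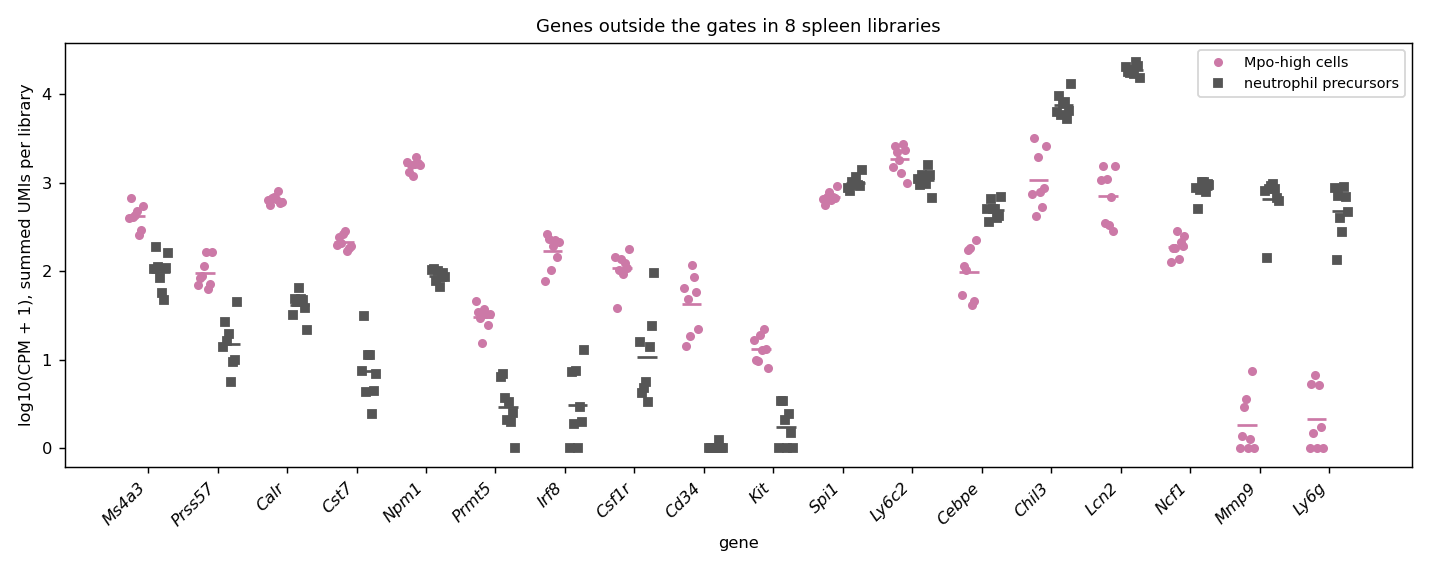
Summed UMIs per library, as log10(CPM + 1), of 18 genes that no gate used, in the 8 libraries tested, with Mpo-high cells as pink circles, neutrophil precursors as grey squares and a bar at each mean. Ms4a3, Calr, Npm1, Prmt5, Irf8 and Csf1r lie higher in Mpo-high cells in all 8 libraries, and Cebpe, Lcn2, Mmp9 and Ly6g lie lower in all 8.

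Of 13 tested early progenitor genes 7 met the filter on low counts only in members and 1 in neither population alone, so no count over all 13 is read. Of the 5 that met it in both, 2 were higher, 1 was lower and 2 did not pass, against 33.7% and 37.9% of all such genes. The lower gene is not named here, and the lowest log2 difference among the 13 was -2.25. Cdk6, a cell cycle kinase of progenitors, stood at 82.3 [66.9 to 136] CPM in members and 6.17 [3.43 to 7.45] in precursors (log2 3.18, SE 0.16, adjusted p = 1.3e-11). Cd34 stood at 52.2 [13.2 to 117] CPM in members, 666 UMIs against 1 UMI in all precursors (ratio of CPM 937, 95% counting interval 168 to 37081). Adgrg1, an adhesion receptor of stem and progenitor cells, had 435 UMIs against 3 (ratio 204, 69.4 to 994), and the cytokine receptor Flt3 had 93 against 2 (ratio 65.5, 17.6 to 548). These 3 genes were close to absent from precursors and met the filter only in members, as did Kit, at 12.1 [7.04 to 21.1] against 0.786 [0 to 2.46] CPM, so their values are a description. The intervals on ratios of summed UMIs, here and below, cover counting error only and not the spread between cells or libraries. Myc stood at 21.3 [10.6 to 33.1] against 1.96 [0 to 5.9] (2.49). Myb and Runx1, factors of progenitors, stood at 57.6 against 25 and 46.5 against 31.2 median CPM, with log2 differences of 0.29 (adjusted p = 0.0917) and -0.21 (adjusted p = 0.16) that did not pass. Both passed as higher without TMM (1.03 and 0.53), while Runx1 passed as lower on leaving out Eµ-PRMT5/TCL1 spleen 2 or spleen 3 (-0.31 and -0.32).

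Of 14 myeloid transcription factor genes 7 were higher, 6 were lower and 1 did not pass, and of the 10 that met the filter in both populations 4 were higher and 5 lower. The higher ones included the monocyte factor Irf8 (202 [76.3 to 265] CPM against 1.46 [0 to 11.8], log2 5.23, SE 0.32, adjusted p = 1.11e-10), Zeb2 (166 [87.2 to 245] against 18.4 [9.14 to 41.5], 2.28), and Cebpa, which is needed to form granulocyte-monocyte progenitors (29.6 [23.7 to 120] against 7.23 [2.95 to 9.14], 1.65). The lower ones included the granulocyte factors Cebpe (109 [40.1 to 225] against 504 [360 to 681], -3.05, SE 0.25, adjusted p = 4.01e-09), Cebpd (-2.25) and Gfi1 (-1.12, and -0.40 with no call without TMM), and Spi1, which encodes PU.1 (559 to 929 against 798 to 1383, -1.24). Cebpb stood at a higher CPM in members of all 8 libraries (735 [489 to 1325] against 471 [207 to 878]), but its log2 difference after TMM was 0.01 (adjusted p = 0.942), and without TMM it passed at 0.74.

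All 14 genes of the primary granule list outside the gate passed, 11 of them higher and 3 lower (median 2.14). The list is not confined to granule proteins, since it also held chaperone genes (Calr and Hsp90b1) and a protease inhibitor gene (Serpinb1a). Calr, a chaperone of the endoplasmic reticulum that handles myeloperoxidase, stood at 642 [559 to 796] CPM against 45.2 [20.6 to 62.8] (3.17, SE 0.13, adjusted p = 1.74e-12). Ctsc, the protease that activates elastase, proteinase 3 and cathepsin G, stood at a median of 529 against 31.7 CPM (3.46), and the chaperone Hsp90b1 was higher by 1.86. Plac8 (2.43), the protease-like Prss57 (1.85), Ms4a3 (1.35) and the granule proteoglycan Srgn (0.31) were higher as well, though the call of Srgn was lost on leaving out any of 6 of the 8 libraries (0.22 to 0.29). The 3 lower genes were Serpinb1a, an inhibitor of these proteases (-2.40), Igsf6 (-2.10) and the granule membrane tetraspanin Cd63 (-1.59).

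All 18 secondary and tertiary granule genes outside the gate were lower in Mpo-high cells, 17 of them genes that met the filter in both populations (median of the 17, -3.77). These genes are made in the same cells as Camp, Ngp and Ltf, which chose the precursors. Lcn2, the siderophore-binding lipocalin, stood at 876 [281 to 1554] CPM in members and 18191 [15217 to 23156] in precursors (-5.44, SE 0.34, adjusted p = 1.42e-10), Chil3 at 823 [414 to 3183] against 7099 [5284 to 13221] (-3.53), the annexin Anxa1 was lower by 3.76 and the lysozyme Lyz2 by 2.61 on the log2 scale. Of 16 mature neutrophil genes 15 were lower, as were 14 of the 15 that met the filter in both populations (median of the latter, -3.29). S100a8 and S100a9, which form calprotectin, stood at 4907 and 6082 median CPM against 104234 and 128562 (-4.87 and -4.89), and the chemokine receptor Cxcr2, which draws neutrophils from marrow, at 4.63 [2.4 to 10.6] against 128 [67.7 to 156] (-5.35, SE 0.24, adjusted p = 4.7e-12). All 6 NADPH oxidase genes, which arm the respiratory burst, were lower (median -2.20), with Ncf1 at 187 [127 to 281] against 905 [500 to 1031] CPM (-2.88).

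Most monocyte genes were higher. Of 15 tested, 12 were higher, 2 were lower and 1 did not pass, and of the 13 that met the filter in both populations 10 were higher and 2 lower (median 2.50). This direction held without TMM (13 of 15 higher, 2 lower). Ms4a6c stood at 351 [174 to 433] CPM against 11.7 [2.28 to 35.4] (4.15, SE 0.31, adjusted p = 1.44e-09) and F13a1, the A subunit of coagulation factor XIII, at 232 [147 to 339] against 4.44 [0 to 15.4] (4.39). The colony stimulating factor 1 receptor Csf1r stood at 116 [37.3 to 179] against 8.81 [2.28 to 94.3] (2.55) and the chemokine receptor Ccr2 at 107 [37.3 to 130] against 3.77 [0 to 6.38] (3.81). Ly6c2, shared by monocytes and their progenitors, did not pass (2020 [982 to 2748] against 1067 [672 to 1568], 0.06, adjusted p = 0.681, and 0.79 with a call without TMM), while Lgals3 (-1.23) and the lipopolysaccharide co-receptor Cd14 (-2.0) were lower. Of 12 dendritic cell genes 5 could be tested, 2 of which met the filter only in members, and of the other 3, 2 were higher and none was lower.

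**Figure D3:**
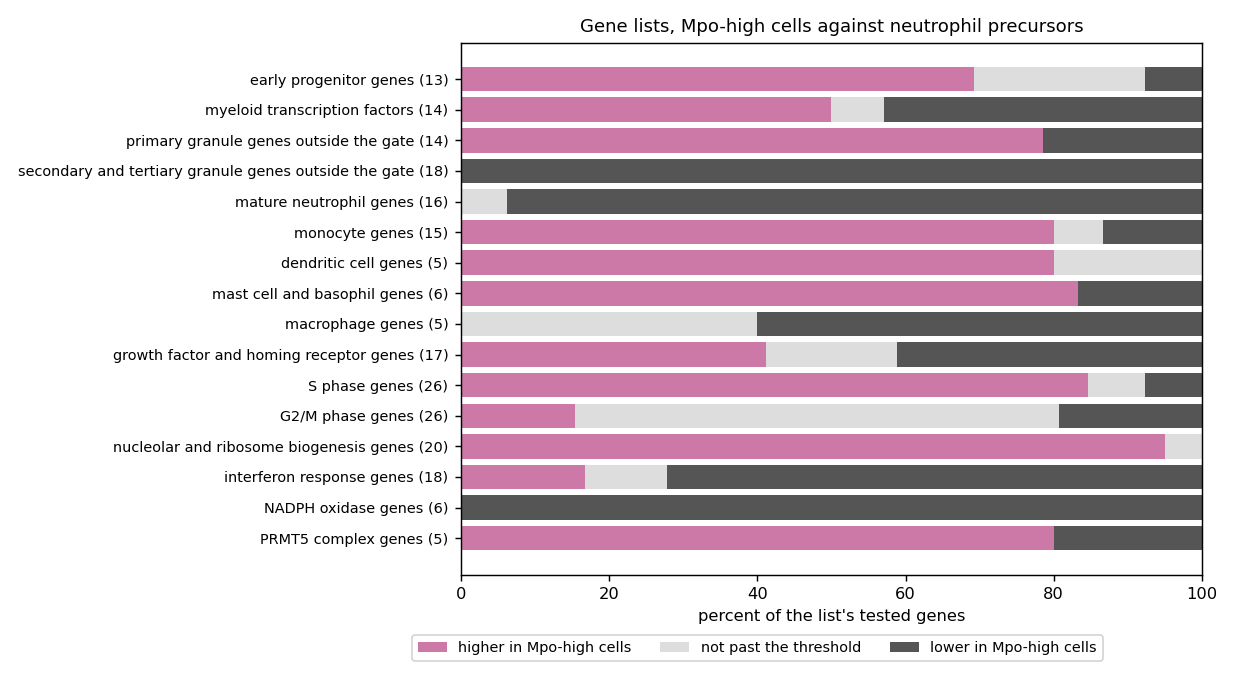
For 16 gene groups, the percent of tested genes that were higher in Mpo-high cells, did not pass, or were lower, by edgeR over 8 libraries at an adjusted p of 0.05, genes that met the filter in only 1 population included. The nucleolar, primary granule (chaperone genes included) and monocyte groups were mostly higher, and the secondary granule, mature neutrophil and NADPH oxidase groups were lower, beside 40.7% higher and 32.8% lower over all genes tested.

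Of 20 genes of ribosome building 19 were higher and 1 did not pass, and of the 15 that met the filter in both populations 14 were higher (median 1.90). Npm1, the nucleolar chaperone nucleophosmin, stood at 1614 [1184 to 1941] CPM against 89.9 [65.1 to 106] (3.41, SE 0.13, adjusted p = 8.04e-13), Fbl, the fibrillarin that methylates ribosomal RNA, at 224 [152 to 282] against 6.5 [5.9 to 9.82] (4.22, SE 0.14, adjusted p = 1.63e-13) and the nucleolin gene Ncl was higher by 1.74. Polr1a did not pass (-0.13, adjusted p = 0.641), and it passed at 0.63 without TMM. The mouse Prmt5 gene, which is not the transgene, stood at 31.6 [14.5 to 45.2] CPM in Mpo-high cells and 1.89 [0 to 5.96] in precursors (2.77, SE 0.25, adjusted p = 1.78e-08). Its cofactor genes Clns1a (1.56) and Wdr77 (0.61) were higher as well, and Riok1 was lower (-0.87), a call lost without TMM (-0.12). Coprs, which encodes another partner of PRMT5, met the filter only in members and stood at 9.33 [0 to 19.8] CPM against 0 [0 to 1.2]. The call of Wdr77 was lost without Eµ-PRMT5/TCL1 spleen 2 (0.49, adjusted p = 0.0537 by edgeR) and in the 4 libraries with at least 50 cells (0.58, adjusted p = 0.0586). At 5000 UMIs per cell, Prmt5 was seen in 13.6% of members, 1.31% of precursors and 15.4% of T cells, so the share of Mpo-high cells with a Prmt5 UMI was near that of T cells.

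Genes of DNA synthesis were higher in 22 of 26, and in 21 of the 25 that met the filter in both populations (median of the 25, 0.72), among them the replication helicase subunits Mcm6 (1.23) and Mcm3 (1.04) and the dUTPase Dut (1.30), and 2 were lower, Rrm2 and Slbp (both -0.49, and 0.23 and 0.24 with no call without TMM). Summed over the list, S phase genes took 0.352% ± 0.115 of UMIs in members and 0.155% ± 0.0787 in precursors (SD, n = 8 libraries), higher in 8 of 8 (exact sign-flip test, two-sided, p = 0.00781, the smallest that 8 libraries allow, adjusted p = 0.0625 over 8 cell cycle tests). Of 26 G2/M genes 4 were higher and 5 lower (median -0.05), and without TMM 20 were higher and 1 lower, so no direction is given. Their summed share was 0.420% ± 0.0674 against 0.365% ± 0.101, higher in 5 of 8 libraries (exact sign-flip p = 0.148, adjusted p = 0.533). Granule transcripts fill much of a precursor. With granule and mature neutrophil genes taken out of the totals, the S phase share was 0.376% ± 0.128 against 0.258% ± 0.104 (higher in 7 of 8) and the G2/M share 0.447% ± 0.0748 against 0.616% ± 0.120 (higher in 1 of 8).

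Of 18 interferon response genes 13 were lower and 3 higher, and of the 16 that met the filter in both populations 12 were lower and 2 higher (median -1.13). Over all 18 without TMM, 8 were lower and 3 higher. Irf7, the factor that amplifies the response, was lower by 2.22, Zbp1 by 1.77 and Isg15 by 1.53 on the log2 scale. The higher ones included Bst2 (1.91) and Ifi204 (0.96), though the call of Ifi204 was lost without the library block (0.85, adjusted p = 0.062 by edgeR) and in the 4 libraries with at least 50 cells (0.90, adjusted p = 0.0511). Mx1, with 93 UMIs against 1 (ratio 131, 22.9 to 5225), met the filter only in members, so its value is a description. Of 17 growth factor and homing receptor genes 7 were higher and 7 lower, and of the 15 that met the filter in both populations 5 were higher and 7 lower (median -0.38). The balance turned with the setting, so no direction is given. Without TMM 9 of 17 were higher and 6 lower (median 0.88), and in thinned counts 1 of 12 was higher and 8 lower (median -1.43). Thinned counts are those of cells gated anew after thinning to 1500 UMIs, in the 5 libraries that kept enough cells. The integrin subunits Itga4 and Itgb1 were higher (1.99 and 0.45, the latter -0.05 with no call in thinned counts), while the marrow retention receptor Cxcr4 (38 [31.5 to 50.7] against 70.8 [30.2 to 94.3] CPM, -1.53), Cd44 (-1.31) and Csf2ra (-1.04) were lower. Csf2rb did not pass (0.15, adjusted p = 0.349), and it passed at 0.88 without TMM and at -0.87 in thinned counts.

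Lists of other cell types that a gate on granule genes could hold were examined next. The 10 T and NK cell genes summed to 0.958 to 15 CPM in members, 4 of them at 0, and none reached the level for a test. The 10 B cell genes, without the gate genes, summed to 62.9 to 190 CPM against 7.94 to 94.3 in precursors. Of the 10, 2 could be tested, Ighm, which was higher (1.74, and -0.13 with no call in thinned counts), and Igkc, which was lower. Macrophage genes summed to 30.1 to 152 CPM against 131 to 408, with 0 of 5 higher and 3 lower. Of 12 erythroid genes 2 could be tested, 1 meeting the filter only in members (Car2) and 1 only in precursors, and of 8 megakaryocyte genes 1 could be tested, Itga2b, which met it only in members, so no direction is read for these lists. The erythroid genes summed to 8.94 to 157 CPM (median 19.7) in members and at most 14 (median 6.82) in precursors, and the megakaryocyte genes to at most 18 and 3.19 CPM. Of 9 eosinophil genes 2 were tested, 0 higher and 1 lower, and the list summed to 6.22 to 17 CPM against 13.4 to 34. The part of RNA from such cells in the profile was not tested.

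The 10 mast cell and basophil genes summed to 36.1 to 607 CPM (median 102) in members, against a median of 459.6 CPM in precursors. Of the 10, 6 were tested, and Hdc was lower. The other 5 passed the filter on low counts only through the members, so their differences are given as a description. Without the library block, and in thinned counts, Hdc alone of the list was tested. The basophil protease Prss34 had 1642 UMIs in members and 0 in precursors (at least 770-fold, against a floor of 3 counts in all precursors), and 5 members in 3 libraries held 1632 of them (99.4%). Mcpt8 had 620 UMIs against 1 (ratio 873, 156 to 34523), Cpa3 251 against 0 (at least 118-fold), the IgE receptor subunit genes Fcer1a 158 against 0 (at least 74.1-fold) and Ms4a2 59 against 0 (at least 27.7-fold). This interval and these floors cover counting error only and not the spread between cells or libraries. By DESeq2, Prss34, Cpa3, Fcer1a and Ms4a2 did not pass (adjusted p = 0.56, 0.103, 0.57 and 0.383).

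The Mpo-high cells were not uniform. They were divided into 3 bands by a fixed rule, namely 140 cells (21.5%) over the precursor limit on Camp, Ngp and Ltf, 216 cells (33.1%) under it with a UMI of Kit or Cd34, and 296 cells (45.4%) under it without. The bands are ranges of cells and not types, the call of Kit or Cd34 depends on depth, and median depths were 11442, 23597.5 and 20551 UMIs. The genes that cut the bands, and the pooled values below, are given with no test. Over the limit, the pooled level was 504 CPM for Cebpe, 378 for the ficolin Fcnb, 4637 for Lcn2 and 13693 for Elane. It was 30.4, 3.96, 130 and 4811 CPM in cells with Kit or Cd34 and 29.2, 21.8, 374 and 4898 CPM in cells without. In these pooled values monocyte genes ran the other way, with 7.21, 225 and 230 CPM for Irf8, 13.9, 166 and 315 for F13a1, 4.44, 66.6 and 134 for Ccr2 and 42.7, 291 and 504 for Ms4a6c across the bands in that order. The pools drew unequally on the spleens, with 61 of the 140 cells over the limit from Eµ-PRMT5 spleen 4 and 77 of the 216 with Kit or Cd34 from Eµ-PRMT5/TCL1 spleen 2. Over libraries with at least 10 cells in a band (3, 7 and 7 libraries), the medians were 0, 116 and 198 CPM for Irf8, 15.9, 158 and 350 for F13a1, 0, 66.2 and 159 for Ccr2 and 2.48, 212 and 501 for Ms4a6c, in the same order of bands. Secondary granule genes, relatives of those that cut the bands, and monocyte genes were thus highest in different bands. The gate asked for Mpo and the proteases in each cell, so their presence in all 3 bands was set in advance. The levels of Mpo and Elane across the bands are a description only. Flt3 (0, 15.7 and 2.49 CPM), Myb (41.0, 88.1 and 26.2), Cebpa (18.9, 48.7 and 22.8), Mpo (2596, 3783 and 1812) and Prmt5 (10.5, 41.3 and 24) were highest in the band with Kit or Cd34. The label markers Ms4a3 (722, 391 and 333 CPM) and Prss57 (195, 82.2 and 52.7) were instead highest over the precursor limit. The proliferation gene Mki67 stood at 135, 126 and 196 CPM.

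**Figure D4:**
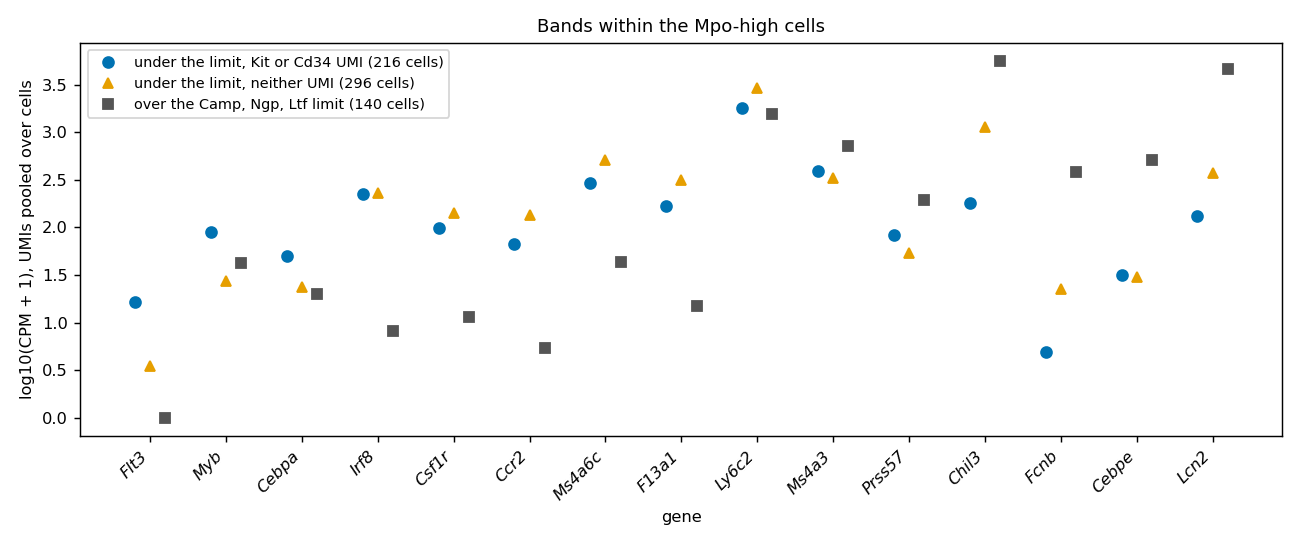
Pooled log10(CPM + 1) of 15 genes in the 3 bands of Mpo-high cells, those over the precursor limit (140 cells), those under it with a UMI of Kit or Cd34 (216 cells) and those under it without (296 cells). Cebpe, Fcnb and Lcn2 are highest over the limit, and Irf8, Csf1r, Ccr2 and F13a1 are highest under it.

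The bands were unequal between spleens. Cells over the limit were 34.1% of the Mpo-high cells in Eµ-PRMT5 spleen 4, 17.3% and 31.4% in Eµ-TCL1 spleens 1 and 3, and 6.77%, 10.4% and 33.3% in Eµ-PRMT5/TCL1 spleens 2, 3 and 4. Cells with Kit or Cd34 were 18.4%, 39.4%, 18.6%, 57.9%, 29.2% and 8.33% in the same order. Eµ-PRMT5 spleen 1 held 1, 10 and 11 cells in the 3 bands and Eµ-TCL1 spleen 4 held 2, 11 and 9. The spleens of each genotype spread over most of the range. With at most 3 such spleens per genotype no test of the bands was made.

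The last question was whether Mpo-high cells differed between genotypes, over 3 Eµ-TCL1 spleens, 3 Eµ-PRMT5/TCL1 spleens and 2 Eµ-PRMT5 spleens. No gene of 9056 passed in any of the 3 comparisons by edgeR's quasi-likelihood test with Benjamini-Hochberg adjustment (0.0% called). The lowest adjusted p was 0.309 for Eµ-PRMT5 minus Eµ-TCL1, 0.628 for Eµ-PRMT5/TCL1 minus Eµ-TCL1 and 0.954 for Eµ-PRMT5/TCL1 minus Eµ-PRMT5. At an unadjusted p under 0.05 there were 293, 232 and 311 genes. The same test without the filter on low counts called 79, 50 and 71 genes, so the absence of calls depended on that filter. DESeq2 called 3, 1 and 1. Of these DESeq2 calls, chosen after their values were seen, Olfm4, a gene of secondary granules in a subset of neutrophils, stood at 73.5 and 25.3 CPM in the Eµ-PRMT5 spleens, 0, 2.59 and 0 in the Eµ-TCL1 spleens and 3.64, 2.86 and 0 in the Eµ-PRMT5/TCL1 spleens (adjusted p = 7.16e-05 and 0.0017 by DESeq2 against these groups). F630028O10Rik stood at 187, 313 and 264 CPM in the Eµ-TCL1 spleens and at 80.8 to 91.3 in the other 5, which it did not overlap (log2 -1.59 and -1.64, adjusted p = 0.0409 and 0.00557 by DESeq2). The remaining call, for Eµ-PRMT5 minus Eµ-TCL1, was the mitochondrial gene mt-Nd3 (log2 3.36, adjusted p = 0.00669 by DESeq2). None of the 3 genes passed by edgeR with the filter.

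Mouse Prmt5 stood at 45.2 and 33.4 CPM in Mpo-high cells of the Eµ-PRMT5 spleens, at 28.7, 14.5 and 36.1 in the Eµ-TCL1 spleens and at 31.5, 23.6 and 31.7 in the Eµ-PRMT5/TCL1 spleens, and none of the differences passed. Mouse Tcl1 had no UMI in any member of these libraries. Within the gene groups 0 genes were called. The summed S phase share was 0.342% ± 0.0249 in Eµ-PRMT5 (n = 2), 0.301% ± 0.0580 in Eµ-TCL1 (n = 3) and 0.410% ± 0.184 in Eµ-PRMT5/TCL1 spleens (n = 3), and the Eµ-PRMT5/TCL1 mean rested on spleen 4 (0.622%). The G2/M share was 0.359% to 0.387% in Eµ-PRMT5, which did not overlap the 0.391% to 0.502% of Eµ-PRMT5/TCL1 spleens (difference 0.0786 percentage points, exact permutation test, two-sided, p = 0.2). That is the smallest p that 2 against 3 spleens allow, and 3 against 3 allow 0.1, so no cell cycle share could have passed and these tests do not show that genotypes were alike.

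In a few genes, singled out after their values were seen, spleens of the same genotype differed widely in the Eµ-PRMT5 and the Eµ-TCL1 groups, while the 3 Eµ-PRMT5/TCL1 spleens lay closer together. Cd74, the invariant chain of class II major histocompatibility molecules, stood at 24 and 3264 CPM in Mpo-high cells of Eµ-PRMT5 spleens 1 and 4, at 1345, 66.4 and 18 in Eµ-TCL1 spleens 1, 3 and 4, and at 1841, 872 and 788 in Eµ-PRMT5/TCL1 spleens 2, 3 and 4. H2-Aa, a class II chain, followed at 5.65 and 808, 407, 11.4 and 3.01, and 504, 229 and 141 CPM. The interferon-induced GTPase gene Gbp2 stood at 8.48 and 347, 400, 73.2 and 12.0, and 310, 253 and 232 CPM, and Ly6a, which encodes the stem cell antigen Sca-1 and is induced by interferon, at 1.41 and 1113, 151, 21.8 and 3.01, and 163, 119 and 45.7 CPM. The same 3 spleens, Eµ-PRMT5 spleen 1 and Eµ-TCL1 spleens 3 and 4, were lowest for Cd74, H2-Aa, Gbp2 and Ly6a. Cells with monocyte markers held 1503 to 10699 CPM of Cd74, lowest in Eµ-TCL1 spleens 3 and 4, and their Ly6a was lowest in the same 3 spleens (22.1, 35.1 and 8.91 CPM, against 102 to 1630 in the other 5). In T cells Ly6a stood at 93.8, 918 and 233 CPM in these 3 spleens, against 253 to 1150 in the other 5. In neutrophil precursors it stood at 1.06, 6.46 and 0 CPM, against 2.95 to 58.6. The part of other cells' RNA in these values was not tested.

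**Figure D5:**
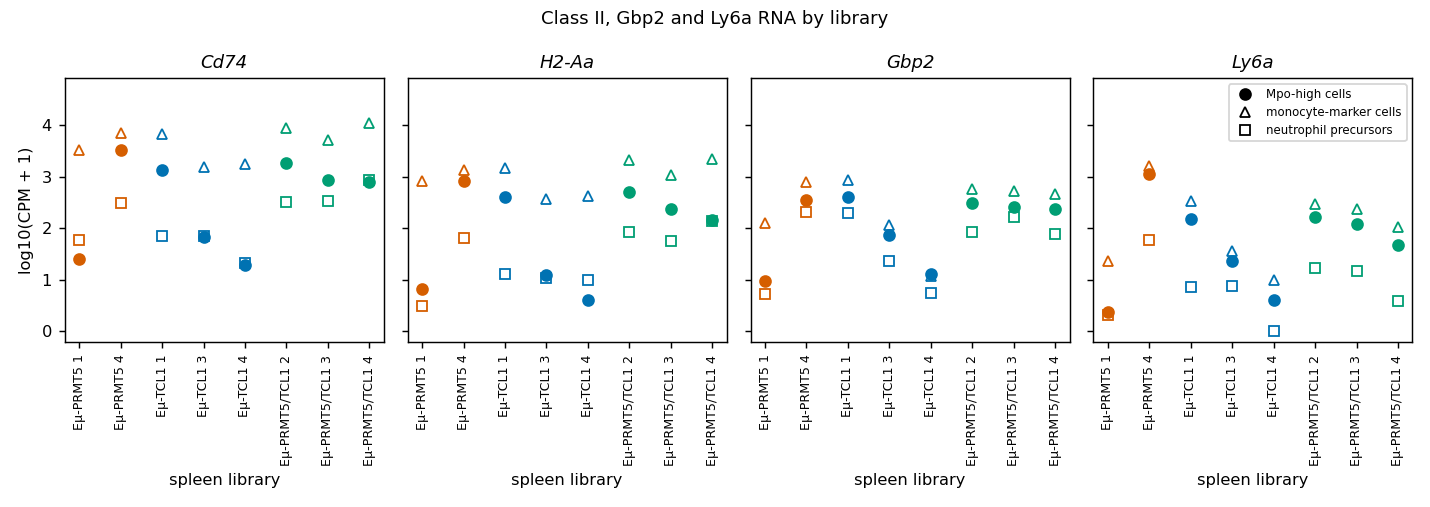
Log10(CPM + 1) of Cd74, H2-Aa, Gbp2 and Ly6a by spleen in Mpo-high cells, cells with monocyte markers and neutrophil precursors, with 1 point per library. In Mpo-high cells Cd74 runs from 18 to 3264 CPM and Ly6a from 1.41 to 1113 CPM, with Eµ-PRMT5 spleen 1 and Eµ-TCL1 spleens 3 and 4 lowest for all 4 genes.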

How the data were processed

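Single-cell RNA was captured by the submitters with the 10x Chromium Single Cell 3′ v2 kit. The deposited files hold raw, unfiltered UMI counts per gene and barcode for 31053 mouse genes, which the authors made with Cell Ranger (version 2.0.1 in their processing notes, 3.1.0 in the file headers) without normalisation, and Seurat 2.2.1 is named for their later steps.

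Here barcodes were kept at 1500 or more UMIs, 200 or more genes and at most 10% mitochondrial UMIs, and then gated as the report states. Members and gene lists were chosen with earlier results of these data known. T cells had 2 or more UMIs of Cd3 genes, and monocyte and erythroid cells were gated by summed marker UMIs. Scrublet (scanpy 1.11.5) marked under 0.5% of barcodes in 16 of 20 libraries and 0 members, so it was taken not to have worked and served only as an alternative. UMIs were summed per library and population where both held at least 20 cells, filtered with filterByExpr (minimum count 10), scaled by TMM and tested with edgeR 4.0.16 (R 4.3.3) by the quasi-likelihood test with Benjamini-Hochberg adjustment at 0.05. DESeq2 1.42.0 was an alternative. Members and precursors of 1 library, and spleen and node of 1 mouse, were paired because they came from the same animal. Genotypes were compared over mice, unpaired. Shares were tested by exact permutation (scipy 1.17.1). The member to precursor ratio had 0.5 added to both counts. The summed members of a library held 284188 to 3842939 UMIs and the precursors 339221 to 4536521.

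Genes were named by rule: the 10 genes of mean CPM of at least 100 with the largest difference in each direction, up to 6 genes per list by level in members, and the label markers. Some list genes that went against their list, and Cxcr4, Itga4, Car2, Itga2b, Ighm and Igkc, were named after their values were seen. Some genes the rule names are not reported here. Promoters came from RefSeq (GRCm38.p6). Counts over genes that met the filter in both populations were added after seeing the data. Settings tried were other gates, thinned counts, scalings, filters, cell minimums and each library left out.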

Additional observations from a re-analysis of the deposited data

Results flagged for a closer look

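In each group of 4 to 10 samples, a highest or lowest sample was marked when its gap to the next one was large against the range of the group (Dixon's test at 95%). Of 110 groups examined 9 were marked, and chance marks about 1 in 20 groups. Eµ-PRMT5 spleen 4 stood apart from the other 4 Eµ-PRMT5 spleens in its share of Mpo-high cells (3.89%). It also had the highest median depth over all kept barcodes (13515 UMIs) and the highest share of monocyte-marker cells (12.9%). Its T cells and its Mpo-high cells were not the deepest (medians of 3200 and 13767 UMIs). Over the 8 libraries with 20 or more members, Eµ-PRMT5/TCL1 spleen 4 stood apart in the S phase share of UMIs in Mpo-high cells (0.622%), Eµ-PRMT5 spleen 4 in Ly6a (1113 CPM) and Eµ-PRMT5 spleen 1 in Olfm4 (73.5 CPM). Eµ-PRMT5/TCL1 spleen 4 also stood apart in the log2 ratio of CPM + 1, members to precursors, of Stfa2l1 (-2.79) and BC100530 (0.0), which are near-identical stefin A copies. Further log2 ratios of CPM + 1, members to precursors, that stood apart were those of Prss57 (4.9) in Eµ-TCL1 spleen 4 and of Cxcr4 (0.0589) and the erythroid carbonic anhydrase gene Car2 (1.25) in Eµ-PRMT5 spleen 4.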

How the results depend on the processing

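No genotype difference in share or ratio passed at any setting. For Eµ-PRMT5 minus Eµ-TCL1 the ratio was -0.55 with the gate after thinning to 1500 UMIs and -0.0267 with the looser thinned gate (Mpo 2, proteases 1, added after seeing the data). Replicate numbers name different mice and so pair nothing, and with them as a block the share difference for Eµ-PRMT5 minus Eµ-TCL1 was 0.175, the ratio -0.16 and the G2/M difference 0.00328, while no gene was called between genotypes. Leaving out 1 spleen at a time gave share differences of -0.793 to 0.278 (Eµ-PRMT5 minus Eµ-TCL1), -0.506 to 0.661 (Eµ-PRMT5/TCL1 minus Eµ-TCL1) and -0.445 to 1.05 (Eµ-PRMT5/TCL1 minus Eµ-PRMT5), ratios of -0.16 to 0.95, 0.59 to 0.97 and -0.18 to 0.93, and spleen minus node differences of 0.569 to 1.15. Without 1 library the S phase difference between populations was 0.183 to 0.209 and the G2/M difference 0.0358 to 0.0776, while between genotypes S phase gave 0.0115 to 0.0694, 0.00331 to 0.163 and -0.0380 to 0.122 and G2/M gave -0.0890 to 0.00328, -0.0104 to 0.0819 and 0.0532 to 0.109. With cells of both gates left out the S phase difference for Eµ-PRMT5/TCL1 minus Eµ-PRMT5 was -0.0374, a setting that also drops Eµ-PRMT5/TCL1 spleen 4 (16 cells left), and 0.0625 with that spleen kept (added after seeing the data). Unpaired, the S phase difference between populations of 0.197 had an adjusted p of 0.00559 (exact permutation test). With granule genes out of the totals, also added after seeing the data, the G2/M difference was -0.168. Among non-lymphoid barcodes r with erythroid cells was 0.571. The cause of the other changes was not tested.

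Between populations 7167 genes passed, 6548 to 6989 without 1 library and 2330 of 3828 tested in thinned counts of 5 libraries, where fewer genes could be tested. For 94 named genes, 1522 values under other settings kept direction and side of the threshold, 22 lost and 6 gained a call, and 19 turned. Without TMM, which was added after seeing the data, Runx1 (0.53), Polr1a (0.63), Rrm2 (0.23) and Slbp (0.24) turned. Cebpb (-0.82), Ly6c2 (-0.12), Itgb1 (-0.0539), Csf2rb (-0.87) and Ighm (-0.13) turned in thinned counts. That setting also chose the cells anew and left 5 libraries. Cebpb, close to 0, was -0.0123 without the library as a replicate block, -0.21 with at least 50 cells and -0.0332 without cells of both gates. Leaving out 1 library gave -0.11 to 0.0530 for Cebpb, -0.0579 to 0.0789 for Ly6c2, -0.00903 to 0.20 for Csf2rb and -0.32 to 0.0312 for Polr1a. Between genotypes, in the order used above, DESeq2 called 3, 1 and 1 genes, no filter gave 79, 50 and 71, thinned counts 12, 6 and 26 over 5 libraries with a single Eµ-PRMT5 spleen (spleen 4, assumed to vary like the other groups), and the 4 libraries with at least 50 members, where Eµ-PRMT5 and Eµ-PRMT5/TCL1 had 1 spleen each, 16, 4 and 0. Leaving out 1 library gave 0 to 11, 0 to 0 and 0 to 6, and the calls came without Eµ-PRMT5 spleen 1, which leaves a single Eµ-PRMT5 spleen assumed to vary like the other groups. With sex read from Xist as a covariate 0 were called. The 5 spleens with under 10 members set only loose limits on a share, and 2 or 3 spleens per genotype limit what the gene tests can show.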
